A study of Mus musculus with 2 samples.

Results

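The genes described here are 40 genes of mitosis and of G2/M, the stretch of the cell cycle between DNA replication and division, chosen by name and found, all 40, among the 21905 genes listed for resident cells of mouse bone. They comprise 6 genes for Cdk1, its cyclins and its Cks subunits, 10 for mitotic kinases and their cofactors, 4 for the anaphase promoting complex (APC), its substrates and securin, 5 for the centromere and kinetochore, 11 for the spindle, its motors and cytokinesis, and 4 for chromosome structure. The cells came from femurs and tibias of 12-week-old female mice that had received vehicle (Veh) or, 96 h earlier, doxorubicin at 10 mg/kg (Doxo). Doxorubicin is an anthracycline used against cancer. Bones were digested with collagenase, and cells carrying the surface proteins CD45, CD71 or Ter119 were depleted before droplet-based 3′ RNA sequencing of single cells. The labels also name CD31, an endothelial surface protein, among those depleted. Each condition gave 1 library, the number of mice behind it and their strain are not given in the labels, and no test between conditions was made. Intervals are given at 95% throughout, and they reflect counting error alone.

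A cell that has copied its DNA enters mitosis when Cdk1 is activated by cyclins B and A. Plk1 and the Aurora kinases then build the spindle, and the checkpoint kinases hold division until each kinetochore is attached. The APC, together with Cdc20 and Ube2c, then marks securin and cyclin B for destruction. Transcripts of these genes rise together late in the cycle and fall in cells that leave it, so they are used to find dividing cells. In adult bone, dividing stromal cells are rare, while blood precursors of the marrow divide often. Doxorubicin blocks topoisomerase II and can halt cells before mitosis.

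The Veh library held 2488 cells with a median of 8693 UMIs (molecular identifiers, each standing for 1 counted RNA molecule) and the Doxo library 2488 cells with a median of 7347.5. Only 4 cell barcodes occurred in both. Cells were clustered without the 40 genes and without the listed S-phase and other mitotic genes, and clusters were called CAR-like (Cxcl12-abundant reticular), bone and cartilage fibroblast-like, arteriolar and endosteal fibroblast-like, osteoblast-like, chondrocyte-like or endothelial-like from their markers. A further 44 Veh and 55 Doxo cells stayed unnamed. These classes were rebuilt and need not match those of the study. The libraries differed in blood cell RNA. The 24 immune, red cell and megakaryocyte markers made up 1171 CPM (UMIs per 1000000) in Veh and 147 CPM in Doxo, and the 8 red cell markers had a UMI in 75.8% of the Veh library and 2.45% of the Doxo library. Of the blood markers, 24 in Veh and 23 in Doxo were above 0, and 42 Veh and 7 Doxo cells held 20 or more of their UMIs. Its part in the results below was not tested, and values without such cells are given where they differ most.

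The 40 genes had 11189 UMIs in Veh and 9915 in Doxo, or 450.1 and 477 CPM. Most of these UMIs came from a handful of broadly used genes. Hmgb2, a chromatin protein, Pttg1 (securin, the inhibitor of separase), the checkpoint protein Bub3, the condensin subunits Smc4 and Smc2, and the Cdk1 subunits Cks1b and Cks2 made up 76.1% of the UMIs of all 40. Pttg1 had UMIs in 1052 of the Veh and 960 of the Doxo cells. By contrast Plk1, the kinase that drives entry into mitosis, was found in 12 Veh and 16 Doxo cells, and Ttk, which starts the spindle checkpoint, in 11 and 8. Both libraries therefore held broadly detected members beside others seen in a few cells.

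Many of the narrower genes were concentrated in the same few cells. Cells with 10 or more of the genes numbered 33 in Veh and 16 in Doxo, 0.985% of all 4976 cells and 1.51% of all UMIs, and they held 4010 of the 21104 UMIs of the 40 genes. For 18 genes more than 50% of the UMIs lay in these 49 cells, led by Cenpf, a kinetochore protein made in G2, with 77.2% of 246 UMIs. Mki67, which coats mitotic chromosomes, had 59.5% of its 440 UMIs there and Cdk1 55.4% of 184. The remaining narrower genes had most of their UMIs elsewhere, such as Cdc20 with 32.5% of 209 UMIs in these cells and Tacc3 with 23.3% of 150. At the other end stood 7 genes with less than 20%. Pttg1 had 1.51% of its UMIs in these cells and Bub3 3.56%. These shares describe the choice of cells in part, since each gene counts toward the 10.

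**Figure D1:**
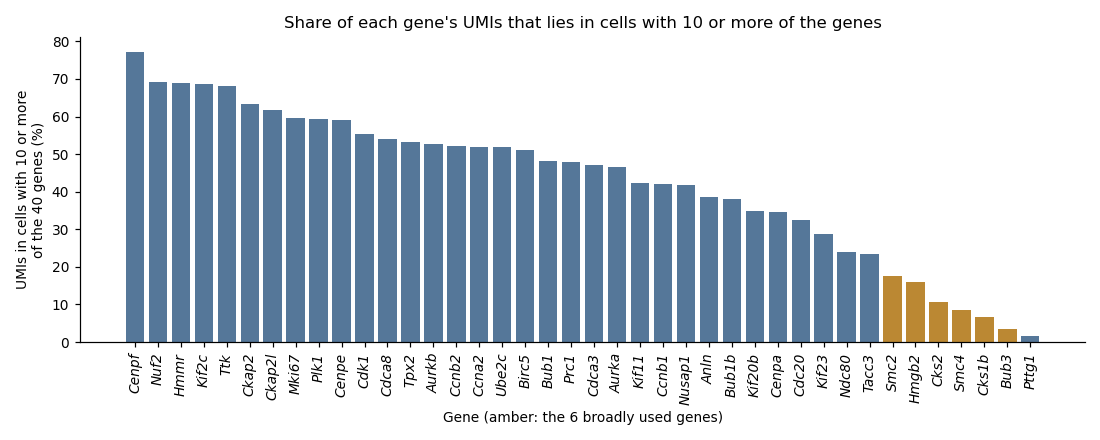
The bars give, for each of the 40 genes on the horizontal axis, the percentage of its UMIs (both libraries, vertical axis from 0) that lies in the 49 cells with 10 or more of the genes. Cenpf stands at 77.2%, the 6 broadly used genes (amber) and Pttg1 all lie below 20%.

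When a gene itself was left out of the choice, its level still separated these cells from the rest. In cells with 10 or more of the other 39 genes, Cdk1 was found in 33.3% of the 33 Veh and 81.3% of the 16 Doxo cells, against 1.96% and 1.29% of the remaining cells. Cenpf was detected by the same measure in 61.3% of 31 Veh and 87.5% of 16 Doxo cells, against 1.22% and 0.728% of the rest. For Mki67 these shares were 86.7% of 30 Veh and 87.5% of 16 Doxo cells, with 388 CPM in Veh and 351 CPM in Doxo. Pttg1 did not separate them, with 67.0 CPM in such Veh cells against 69.3 CPM in the rest, and 72.2 against 69.7 CPM in Doxo. Ckap2, a spindle protein, had 47.6 CPM in the Veh cells and 678 CPM in the Doxo cells, of which 1 chondrocyte-like cell alone held 70 UMIs.

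Many of the genes share letters in their promoters. RefSeq promoter windows (GRCm38.p6, 250 bases before to 50 after the gene start) were matched by symbol for 36 of the 40 genes, all but Aurkb, Ccna2, Smc4 and Tpx2. The cell cycle genes homology region (CHR, letters TTTGAA or TTTAAA on either strand), through which the DREAM and MuvB complexes act, was found in 30 of the 36 (83.3%) against 30.6% of 27025 genes with a window. CCAAT, the box bound by NF-Y, was found in 27 (75.0%) against 41.1%, at 2 or more places in 19 (52.8%) against 13.3%. Both motifs occurred in 25 (69.4%) against 13.4%, and the letters of 1 E2F-type site, GCGGGAA, in 0 against 5.29%. CHR and CCAAT letters can share bases where they adjoin, and a match is not a bound site. The stretches below are the 150 bases before the start of 6 members chosen by name as examples, 3 of them Cdk1 and the B cyclins. They run 5′ to 3′ on the gene's strand, with CHR and CCAAT letters in capitals.
Cdk1 (chr10:69352913-69353062, minus strand): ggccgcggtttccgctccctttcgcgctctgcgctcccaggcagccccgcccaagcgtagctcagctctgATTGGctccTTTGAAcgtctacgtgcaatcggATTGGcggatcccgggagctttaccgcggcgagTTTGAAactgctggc
Ccnb1 (chr13:100786487-100786636, minus strand): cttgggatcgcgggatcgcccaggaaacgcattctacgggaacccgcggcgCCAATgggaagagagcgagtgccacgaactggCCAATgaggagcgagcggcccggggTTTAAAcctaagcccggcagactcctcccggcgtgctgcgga
Ccnb2 (chr9:70421555-70421704, minus strand): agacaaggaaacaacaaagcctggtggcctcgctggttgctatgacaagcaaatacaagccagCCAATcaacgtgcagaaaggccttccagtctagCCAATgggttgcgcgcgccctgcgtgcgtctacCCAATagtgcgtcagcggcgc
Plk1 (chr7:122159285-122159434, plus strand): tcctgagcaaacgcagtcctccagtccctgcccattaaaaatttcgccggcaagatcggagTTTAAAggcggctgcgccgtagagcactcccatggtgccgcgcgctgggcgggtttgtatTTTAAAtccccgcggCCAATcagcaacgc
Cdc20 (chr4:118437344-118437493, minus strand): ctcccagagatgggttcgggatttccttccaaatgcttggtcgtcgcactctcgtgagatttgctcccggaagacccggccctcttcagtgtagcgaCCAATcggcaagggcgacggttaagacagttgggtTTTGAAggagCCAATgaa
Mki67 (chr7:135716380-135716529, minus strand): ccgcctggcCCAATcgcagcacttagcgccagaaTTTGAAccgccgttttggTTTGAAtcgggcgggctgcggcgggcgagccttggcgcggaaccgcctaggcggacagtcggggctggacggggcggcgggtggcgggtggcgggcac
In Cdk1 the CHR nearest the start begins 15 bases before it, in Cdc20 18, in Plk1 29 and in Ccnb1 42 bases before it. Mki67 has its nearest CHR 98 bases before the start, and the stretch of Ccnb2 holds 3 CCAAT boxes, while its CHR letters lie outside it, 167 bases before and 4 after the start.

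By the rule of 5 or more genes above 0, 361 of 2488 Veh cells (14.5%, interval of 13.1 to 16.0) and 190 of 2488 Doxo cells (7.64%, 6.62 to 8.75) were counted as cycling. Most of them lay near that limit. Of the 551 cells, 307 held exactly 5 genes and 470 (85.3%) held 5 to 7, while a further 590 cells held exactly 4. They were also deep: cells with 5 to 9 genes had a median of 15291.5 UMIs in Veh and 13092 in Doxo, against 7907 and 6988.5 in cells with fewer. When each cell was thinned to 2000 UMIs, 23 of 2376 Veh cells (0.968%) and 17 of 2401 Doxo cells (0.708%) held 5 or more, a difference of -0.26 percentage points with an interval of -0.81 to 0.27. With 6 broad genes left out (Hmgb2, Bub3, Smc4, Smc2, Cks1b and Cks2), 5 or more of the other 34 were held by 46 Veh and 24 Doxo cells. The widely detected Pttg1 stayed among these 34. The share over all cells was lower in Doxo while the summed level of the genes was not (450.1 and 477 CPM), so no order is read from it. In cells with fewer than 20 of the genes the level was 403 CPM in Veh and 381 CPM in Doxo. The higher Doxo level thus rested on the 22 fullest cells, which were picked by these same genes.

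**Figure D2:**
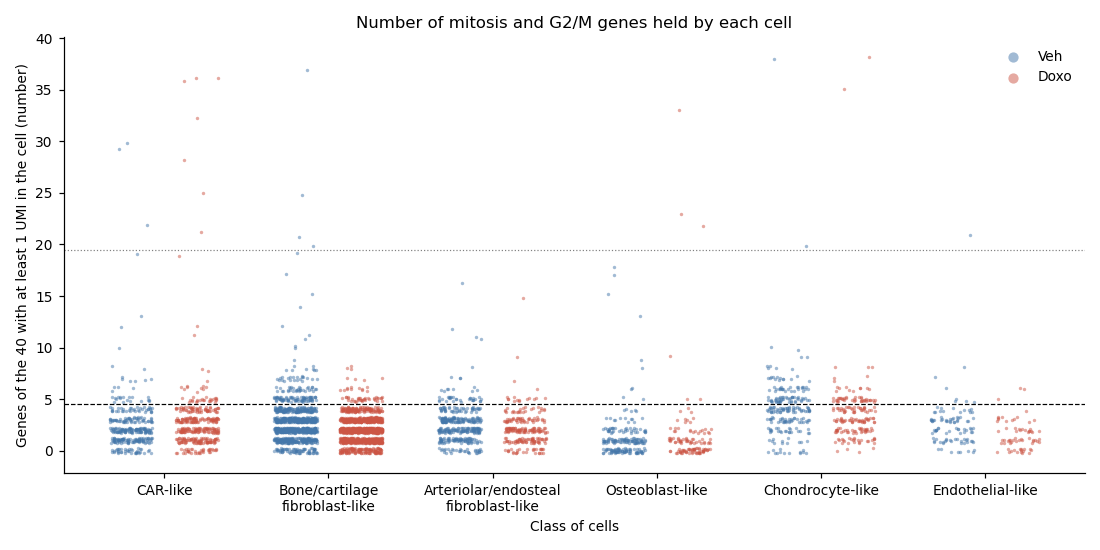
Each point is 1 cell, placed by the number of the 40 genes with at least 1 UMI in it (vertical axis) and by class and library (horizontal axis, Veh blue, Doxo red, points spread for display). The dashed line marks 5 genes and the dotted line 20; 470 of the 551 cells above the dashed line hold 5 to 7 genes, and 22 cells lie above the dotted line.

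By class, bone and cartilage fibroblast-like cells held the most cells counted as cycling, and their share was lower in Doxo. It was 155 of 1093 Veh cells (14.2%, 12.2 to 16.4) and 55 of 1346 Doxo cells (4.09%, 3.09 to 5.29), a difference of -10.1 percentage points (-12.5 to -7.81). The summed level of the 40 genes was 445 CPM in Veh and 360 CPM in Doxo. Much of that gap lay in cells rich in blood RNA: without cells of 20 or more blood marker UMIs the levels were 393 and 359 CPM. The median depth of the class was 9712 UMIs in Veh and 7308.5 in Doxo. After thinning, 9 of 1065 Veh and 2 of 1308 Doxo cells passed, a difference of -0.69 points (-1.45 to -0.12). At 10 or more genes the class had 13 Veh cells and 0 of 1346 Doxo cells, which allows a share of up to 0.223% by the rule of 3 counts and 0.274% by the exact interval. The difference thus kept its direction under each of these counts.

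In CAR-like cells, the share counted as cycling was 37 of 366 in Veh (10.1%, 7.22 to 13.7) and 46 of 425 in Doxo (10.8%, 8.03 to 14.2), with a difference of 0.71 points (-3.66 to 4.98). At 10 or more genes it was 7 and 10 cells, and at 20 or more 3 cells in Veh and 7 in Doxo. The intervals of these differences reached both sides of 0, so neither a lower nor a higher share was detectable at these limits. At 3 or more genes the share was 36.1% in Veh and 46.6% in Doxo, a difference of 10.5 points (3.64 to 17.2), but the class was deeper in Doxo (medians of 6228.5 and 7324 UMIs), and after thinning the difference at 3 genes was 0.85 points (-2.99 to 4.56). Osteoblast-like cells gave 10 of 218 in Veh (4.59%) and 6 of 130 in Doxo (4.62%). Chondrocyte-like cells, the deepest class with medians of 19653 and 14786 UMIs, gave 97 of 237 (40.9%) and 56 of 201 (27.9%), but the summed level went the other way (448 and 641 CPM, or 369 and 395 CPM without 4 cells of 20 or more genes), and after thinning 1 Veh and 2 Doxo cells passed, so no order is read from these shares. Arteriolar and endosteal fibroblast-like cells gave 45 of 427 (10.5%) and 17 of 262 (6.49%), with equal levels of 358 and 357 CPM, and endothelial-like cells 8 of 103 and 3 of 69.

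**Figure D3:**
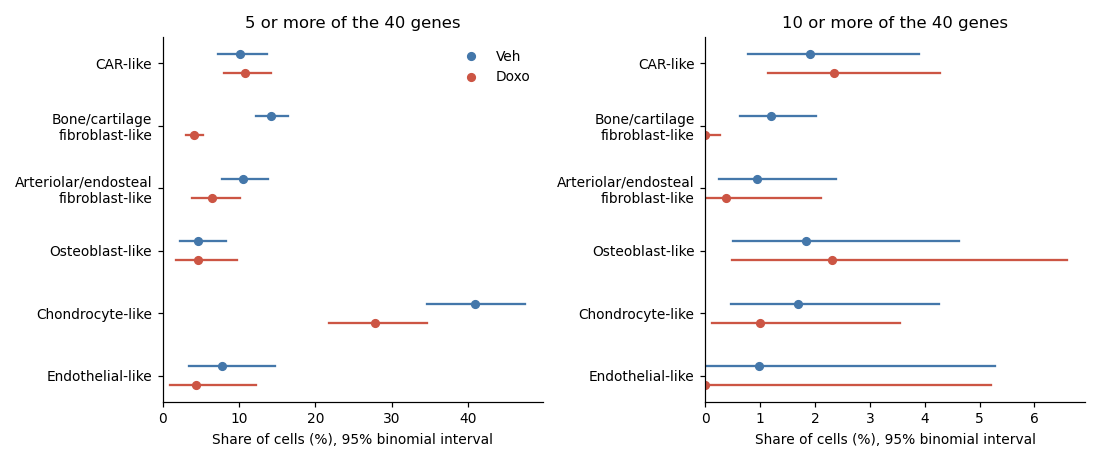
Points give the share of cells (horizontal axis, percent) of each class in Veh (blue) and Doxo (red) with 5 or more (left) or 10 or more (right) of the 40 genes, and lines their exact 95% binomial intervals. On the left the intervals of bone and cartilage fibroblast-like cells (14.2% and 4.09%) do not overlap; on the right the highest share is 2.35%.

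CD71, the transferrin receptor, is raised on dividing cells and was used for depletion, so the sort can set these shares. Its gene, Tfrc, had 264 Veh and 377 Doxo UMIs in bone and cartilage fibroblast-like cells, with a log2 ratio of CPM (Doxo to Veh) of 0.57 (0.34 to 0.80), and 19 and 16 UMIs in CAR-like cells. In the 18 cells with 20 or more of the 40 genes and under 20 blood UMIs, Tfrc had 3 UMIs, where the level of the other cells of their classes would give 3.26. In all 49 cells with 10 or more genes, 11 of them with 20 or more blood UMIs, it had 28 UMIs, or 40.5 CPM against 16.0 CPM, and 26 of these lay in Veh cells. Cells removed by the sort cannot be counted, and the part of the gate in the shares was not tested.

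The cells with the most complete program were few and were placed differently in the libraries. In all, 10 Veh and 12 Doxo cells held 20 or more of the 40 genes, with 1237 UMIs of these genes in Veh and 2049 in Doxo, 11.1% and 20.7% of all. Of the Veh cells, 4 were bone and cartilage fibroblast-like, 3 CAR-like, 2 chondrocyte-like and 1 endothelial-like. Of the Doxo cells, 7 were CAR-like, 3 osteoblast-like and 2 chondrocyte-like. These were the cells closest to a mitotic profile in either library, and each class had at most 7 of them.

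In Doxo CAR-like cells these 7 cells held 38.1% of the UMIs of the 40 genes in the class. The 3 fullest held 36 genes each, with 204, 196 and 192 UMIs of them, and the other 4 held 21 to 32 genes. All 7 had between 6 and 8 of the 8 CAR markers, and their blood UMIs were between 0 and 3 immune and 0 red cell UMIs. The 3 Veh CAR-like cells held 30, 29 and 22 genes with 158, 79 and 85 UMIs, and 7 or 8 CAR markers. The class was named from these same markers, so their presence in these cells follows in part from the grouping. Fewer Veh than Doxo CAR-like cells were measured (366 and 425), and the difference in share (0.82% and 1.65%) had an interval of -0.95 to 2.62 points.

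The 4 Veh cells of bone and cartilage fibroblast-like type with 20 or more genes held more blood UMIs. The fullest of the 4 held 37 genes and 307 UMIs of them, but also 10834 UMIs of immune markers, among them 4485 of S100a8 and 6063 of S100a9, the calprotectin genes of neutrophils and their precursors, in a total of 53253 UMIs. A further 2 held 1166 and 133 red cell UMIs, and the fourth held 15. All 4 had between 6 and 10 of the 10 markers of their class. Thus 3 of the 4 held 20 or more blood UMIs, as did 7 of the 13 Veh cells of the class with 10 or more genes, against 0 of 938 cells with fewer than 5. Of 33 Veh cells with 10 or more genes in all classes, 11 held 20 or more blood UMIs, and of 16 Doxo cells 0. Scrublet called none of these cells a doublet, but it called only 9 Veh and 3 Doxo cells in all, under 0.5% of cells, so it is taken not to have worked.

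Without cells of 20 or more blood UMIs, bone and cartilage fibroblast-like cells with 5 or more genes were 140 of 1078 in Veh (13.0%) and 55 of 1344 in Doxo (4.09%), a difference of -8.89 points (-11.2 to -6.67). Those with 10 or more were 6 and 0. Over all classes the cells with 20 or more genes then numbered 6 in Veh and 12 in Doxo. The share at 5 genes kept most of its difference without these cells, whereas 3 of the 4 fullest Veh fibroblast-like cells were among those removed. A stricter limit, the removal of every cell with 2 or more blood UMIs, left 366 Veh and 1062 Doxo cells of the class and a difference in share of -7.53 points. In those cells Mki67 had 12 Veh and 20 Doxo UMIs (log2 ratio -0.48, -1.56 to 0.71), and lower levels of the list were not seen, as given below. Share and level did not go together there, so no order is read from that share.

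**Figure D4:**
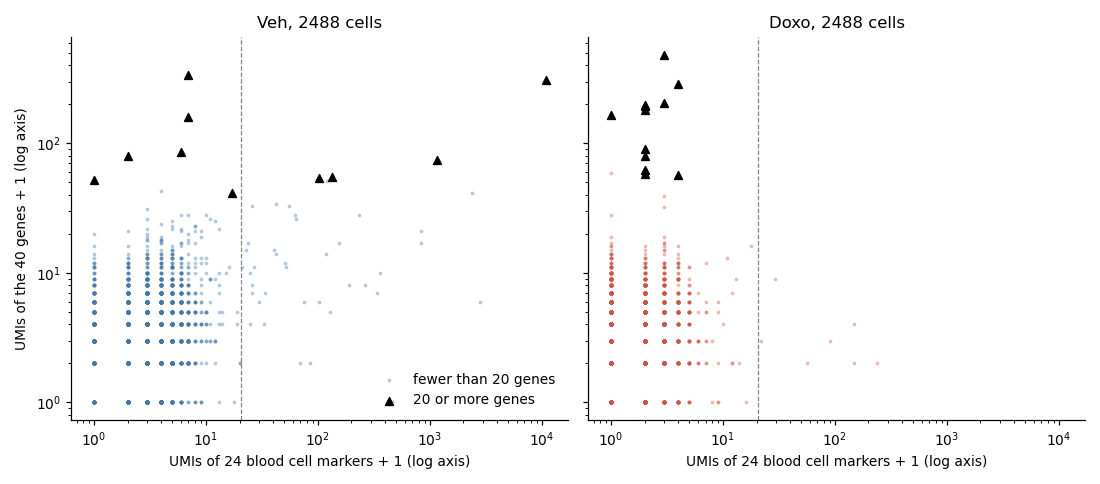
Each point is 1 cell, with the UMIs of the 24 blood cell markers plus 1 on the horizontal log axis and the UMIs of the 40 genes plus 1 on the vertical log axis, for Veh (left) and Doxo (right); triangles are cells with 20 or more of the genes and the dashed line marks 20 blood UMIs. Of the triangles, 4 of 10 in Veh and 0 of 12 in Doxo lie right of the line.

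In bone and cartilage fibroblast-like cells, 36 of the 40 genes had at least 10 UMIs and their median log2 ratio was -0.66, against -0.09 over 14402 genes. Of the 36, 16 were at least 2-fold lower in Doxo, where 5.5% of all genes tested were, and 0 were at least 2-fold higher, where 2.08% were. For Mki67, 148 UMIs lay in 59 Veh cells and 17 in 17 Doxo cells, which gives a log2 ratio of -3.03 (-3.89 to -2.34), the smallest of the 36. The most in 1 cell was 19 in Veh and 1 in Doxo. With cells of 20 or more blood UMIs left out, its Veh UMIs were 80 and its Doxo UMIs 17, with a ratio of -2.18, and 8 of the genes were at least 2-fold lower in place of 16. The share of all genes at 2-fold was not taken without those cells. With every cell of 2 or more blood UMIs removed and the rest clustered again, Mki67 had 12 UMIs in Veh and 20 in Doxo (-0.48, -1.56 to 0.71), and the median of the genes in the class was -0.01. Among the 366 Veh and 1062 Doxo cells with the least blood RNA, lower levels of the list were thus not seen. The ratio of Mki67 was -2.38 with 20 components in the clustering and -2.46 with a stricter filter of cells. Under each of these the class also held 1 Doxo cell with 20 or more genes. After thinning the ratio was -4.64, but thinning left fewer UMIs of the gene, and cells of 20 or more blood UMIs were kept. Among the 6 roles the centromere and kinetochore genes had the lowest median, -1.78 over 4 measured genes.

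Of the cyclins and Cdk1 in this class, Cdk1 had 30 Veh and 13 Doxo UMIs, with a log2 ratio of -1.12 (-2.21 to -0.17). Ccnb2 (cyclin B2) had 20 and 6 (-1.60, -3.29 to -0.31), while Ccnb1 (cyclin B1) had 8 and 9 (0.21) and Ccna2 (cyclin A2) 19 and 15 (-0.28), both with intervals that reached both sides of 0. Lower levels were thus seen for part of this group. Of the kinases and cofactors, Tpx2, which activates Aurora A, had 43 and 11 UMIs (-1.86, -3.02 to -0.93), and Birc5 (survivin), a partner of Aurora B, had 49 and 22 (-1.08, -1.90 to -0.35). Aurka, Aurkb and Plk1 had 13, 8 and 9 UMIs in Veh and 9, 2 and 2 in Doxo, and Bub1b, a checkpoint protein, 7 and 8. The intervals of these 4 genes reached both sides of 0.

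Of the APC genes, Ube2c, its ubiquitin-conjugating enzyme, had 58 UMIs in Veh and 22 in Doxo (-1.32, -2.12 to -0.61), but 1 Veh cell held 19 of the 58, and without cells of 20 or more blood UMIs the ratio was -0.59. Cdc20, the activator of the APC, had 26 and 30 UMIs (0.26), in 24 and 27 cells. The spindle genes held the other small ratios. Prc1, which bundles microtubules between the separating chromosomes, had 79 UMIs in 53 Veh cells and 17 in 15 Doxo cells (-2.13, -3.01 to -1.39), and Hmmr, a spindle assembly protein, 28 and 5 (-2.32, -4.16 to -1.04). Cenpf had 43 and 11 UMIs (-1.86, -3.02 to -0.93). The largest ratios were those of Cdca3 (11 and 14 UMIs, 0.39), Ckap2 (16 and 19, 0.30) and Cdc20. Without cells of 20 or more blood UMIs, the ratio was -0.84 for Cdk1, -1.13 for Ccnb2, -1.56 for Tpx2, -0.51 for Birc5, -1.79 for Prc1, -1.56 for Hmmr and -0.94 for Cenpf, each nearer 0 than with them. Top2a, which is not among the 40 and encodes a topoisomerase on which doxorubicin acts, had 131 and 43 UMIs (-1.54, -2.08 to -1.05), or -0.91 without such cells.

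In CAR-like cells the median of the genes lay above 0. There 37 genes had at least 10 UMIs, with a median log2 ratio of 0.35 against 0.06 over 12748 genes. Of these, 0 were at least 2-fold lower, where 4.6% of all genes tested were, and 3 were at least 2-fold higher, where 5.32% were. The 3 were Cdk1 with 7 UMIs in Veh and 64 in Doxo (2.69, 1.65 to 4.15), Plk1 with 1 and 9 (2.24, -0.10 to 8.21) and Cdca3, which triggers destruction of the mitosis inhibitor Wee1, with 6 and 33 (1.95, 0.77 to 3.59). The 3 smallest ratios were those of Ccnb2 (19 and 13 UMIs, -0.95, -2.10 to 0.13), Cks2 (118 and 106, -0.57, -0.96 to -0.18) and Hmmr (16 and 16, -0.42, -1.51 to 0.68). These shares of 2-fold genes were not far from those of all genes.

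These values rested on few cells. Cdk1 was found in 7 Veh and 21 Doxo CAR-like cells, and 1 Doxo cell held 15 of the 64 UMIs. With the mean of CPM over cells the median of the class was -0.10. With the cells of 20 or more genes left out it was -0.23, with 9 genes at least 2-fold lower. That removal used the same genes and took 7 Doxo but 3 Veh cells, so a lower ratio follows in part from it. The share of all genes at 2-fold was not taken there. The UMIs of Mki67 were 45 (19 Veh cells) and 46 (19 Doxo cells), with a log2 ratio of -0.39 (-1.01 to 0.24). Its ratio depended on which cells were kept and placed in the class: when cells under 1000 genes or above 5% mitochondrial UMIs were left out, it had 34 and 20 UMIs (-0.91, -1.80 to -0.09), and with the cell cycle genes kept in the clustering 62 and 53 (-0.63, -1.19 to -0.08). Under these settings the class held 3 and 9 Doxo cells with 20 or more genes in place of 7.

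**Figure D5:**
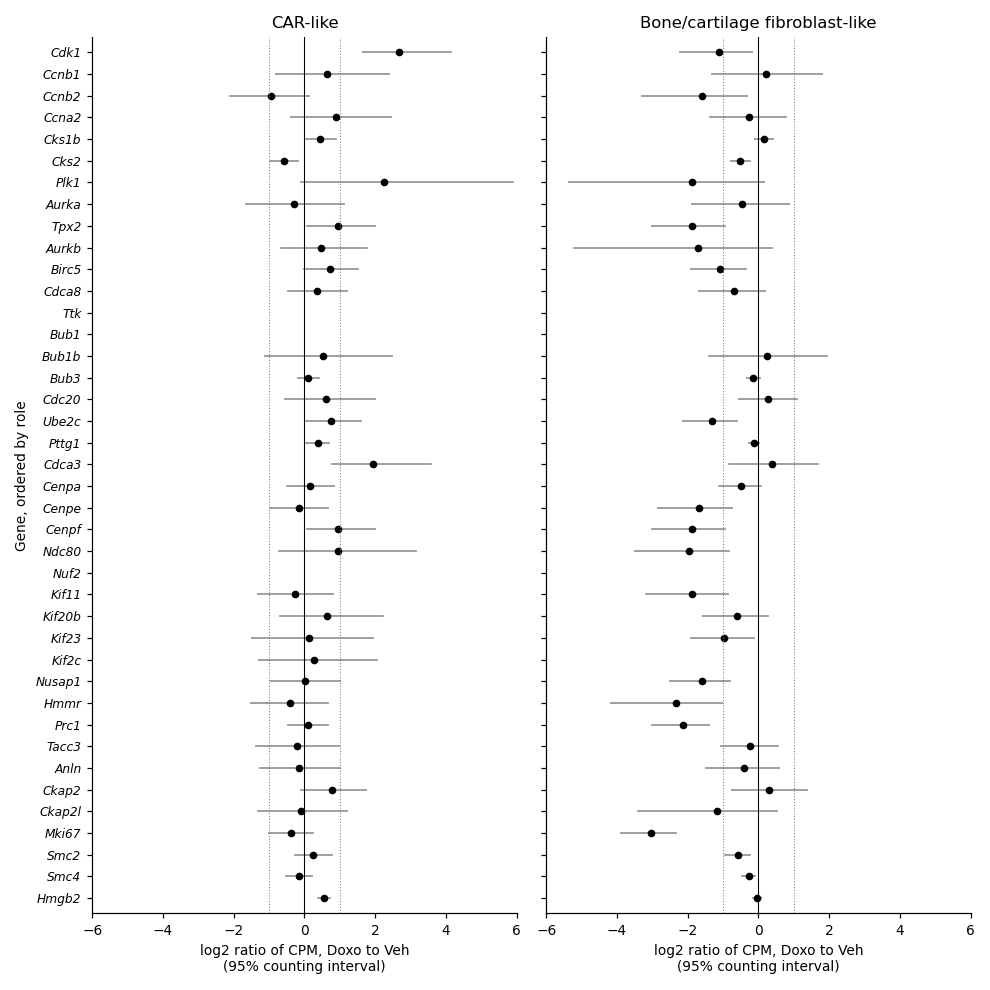
Points give the log2 ratio of CPM, Doxo to Veh (horizontal axis), of each of the 40 genes, ordered by role (vertical axis), in CAR-like (left) and bone and cartilage fibroblast-like cells (right), and lines the 95% counting intervals, drawn to the edge where they run beyond it. Genes with fewer than 10 UMIs in a class are left blank and dotted lines mark a 2-fold difference; 16 points lie below it on the right and 0 on the left.

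In chondrocyte-like cells 35 genes had at least 10 UMIs, with a median log2 ratio of 0.73 against 0.07 over 12275 genes. Of these, 11 were at least 2-fold higher in Doxo, where 6.5% of all genes tested were, and 1, Birc5 with 23 and 6 UMIs (-1.23, -2.90 to 0.02), at least 2-fold lower, where 6.8% were. Ckap2 had 14 UMIs in 12 Veh cells and 115 in 11 Doxo cells (3.62, 2.86 to 4.58), of which 70 lay in 1 cell. Hmmr had 3 and 18 (3.03, 1.43 to 5.62), and Ckap2l, a relative of Ckap2, 3 and 11 (2.34), all 11 in 1 cell. Mki67 had 66 and 22 (-0.94, -1.73 to -0.24) and Ndc80, an outer kinetochore protein, 15 and 5 (-0.87, -2.77 to 0.57). The 2 Doxo cells with 38 and 35 genes held 39.2% of the UMIs of the 40 genes in the class, and with cells of 20 or more genes left out the median was -0.28. Those cells were picked by the same genes, so the lower median follows in part from that choice.

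In osteoblast-like cells 26 genes had at least 10 UMIs, with a median of 0.83 against -0.03 over 8639 genes. Of these, 11 were at least 2-fold higher, where 5.81% of all genes tested were, and 0 lower, where 8.72% were. Ckap2 had 0 UMIs in Veh and 15 in Doxo, at least 8.64-fold higher against a floor of 3 UMIs per library, and the median was the same with this gene at its bound. Cdc20 had 2 and 9 UMIs (2.72), all 9 in 1 cell, and Hmmr 5 and 15 (2.28, 0.84 to 4.19). The 3 smallest were Pttg1 (25 and 11, -0.36), Cks2 (44 and 22, -0.19) and Nusap1, a spindle protein (8 and 4, -0.13), all with intervals that reached both sides of 0. Only 3 Doxo cells, with 33, 23 and 22 genes, held 70.3% of the UMIs, and without cells of 20 or more genes the median was -0.48. That removal used the same genes and took Doxo cells alone, so a lower median follows in part from it. The first of these 3 held 7 of 9 osteoblast and 7 of 8 chondrocyte markers, and with the cell cycle genes kept in the clustering 0 of the 3 were placed in the class, whose median was then -0.12.

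In arteriolar and endosteal fibroblast-like cells 27 genes had at least 10 UMIs, with a median of -0.13 against -0.02. Of these, 3 were at least 2-fold lower, where 5.29% of all genes tested were, and 3 at least 2-fold higher, where 2.43% were. The lower ones were Ndc80 (13 and 1 UMIs, -2.19), Cdca8 (10 and 1, -1.83), a partner of Aurora B, and Tpx2 (10 and 2, -1.09), and the higher ones Kif23, a motor of cytokinesis (6 and 7, 1.19), Ube2c (13 and 15, 1.18) and Tacc3, which steadies spindle microtubules (9 and 10, 1.13). Of the 15 Doxo UMIs of Ube2c 10 lay in 1 cell, and of these 6 genes only the interval of Ube2c (0.02 to 2.38) lay on 1 side of 0. The class also held 5 Veh and 4 Doxo cells with 20 or more megakaryocyte UMIs and fewer than 5 of the genes, and 5 such Veh cells with more. In endothelial-like cells 9 genes had 10 UMIs or more, with a median of -0.51 (-1.66 to 0.02) against 0.06 over 8756 genes. Of the 9, 4 were at least 2-fold lower and 0 higher, where 479 and 744 of the 8756 genes were. Mki67 had 9 UMIs in Veh and 0 in Doxo. At 3 or more genes the share was 47.6% in Veh and 21.7% in Doxo (-25.8 points, -38.4 to -11.3), with median depths of 6326 and 4629 UMIs. After thinning 9 of 96 and 1 of 61 cells passed (-7.74, -15.3 to 0.58).

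Over all cells the median log2 ratio of the 40 genes was 0.11, against -0.01 over all 16628 genes with at least 10 UMIs. Its direction rested on few cells: without the 22 cells of 20 or more genes it was -0.46, with 10 genes at least 2-fold lower and 0 higher. Those cells, 10 in Veh and 12 in Doxo, were picked by the same genes, so a lower ratio follows in part from their removal. The share of all genes at 2-fold was not taken without them. After thinning the median was -0.23. With all cells kept, only 2 genes were at least 2-fold lower in Doxo, where 6.03% of all genes tested were: Mki67 with 327 UMIs in 131 Veh cells and 113 in 53 Doxo cells (-1.27, -1.60 to -0.96) and Ndc80 with 71 and 25 (-1.23, -1.97 to -0.57). A further 2 were at least 2-fold higher, where 3.19% were: Ckap2 with 66 and 193 (1.80, 1.40 to 2.23) and Cdca3 with 40 and 68 (1.02, 0.44 to 1.62). The ratio of Mki67 in a mixture of classes thus differed in sign from that of Cdk1, which had 74 UMIs in 59 Veh cells and 110 in 45 Doxo cells (0.83, 0.39 to 1.27).

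Other mitotic genes, a list of 42 that holds none of the 40, had medians close to those of the 40 in both fibroblast-like classes. Their median was -0.04 against -0.13 for the 40 in the arteriolar and endosteal class, and 0.02 against 0.83 in osteoblast-like cells. The median log2 ratio was -0.64 in bone and cartilage fibroblast-like cells (10 of 38 measured genes at least 2-fold lower, 1 higher), 0.65 in CAR-like cells (2 of 34 lower, 11 higher) and 0.46 in chondrocyte-like cells (0 of 30 lower, 7 higher). Among all genes tested, 5.5% were lower and 2.08% higher in the first class, 4.6% and 5.32% in the second, and 6.8% and 6.5% in the third. With the 22 fullest cells left out, the medians were -0.043 in CAR-like and 0.023 in chondrocyte-like cells. The 41 S-phase genes, which act in DNA replication, had -0.29 in bone and cartilage fibroblast-like cells (4 of 39 lower, 0 higher), 0.20 in CAR-like cells (1 of 38 lower, 4 higher), and -0.19 in chondrocyte-like cells (2 of 36 lower, 0 higher). In osteoblast-like cells the S-phase list had a median of -0.66 over 21 measured genes and the other mitotic list 0.02 over 10. Pcna, the replication clamp, had 726 UMIs in Veh and 893 in Doxo bone and cartilage fibroblast-like cells (0.35, 0.21 to 0.50), and Mcm5, a part of the replicative helicase, 46 and 38 (-0.22, -0.88 to 0.43).

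The genes outside the 40 with the largest ratios in cells with 5 or more differed between the libraries. Against other cells of the same class and library, and among genes with at least 50 UMIs there, the 10 leading genes in the 190 Doxo cells included Top2a (154 UMIs, 19.9-fold), Rrm2 (74 UMIs, 9.71-fold), Tk1 (53 UMIs, 6.88-fold) and Tyms (52 UMIs, 3.79-fold), which act in DNA topology and in making deoxynucleotides, and Stmn1 (173 UMIs, 4.30-fold), which binds tubulin. The others were Slpi, Tagln, Lockd, Cxcl2 and Tchh. In the 361 Veh cells they were Cd84, AI504432, Treml2, Saa1, Ltf, Chil3, Cd226, S100a8, S100a9 and Il1b, several of them genes of myeloid cells and platelets, with 4597 UMIs of S100a8, of which 4485 lay in the single cell named above. Top2a stood at 5.09-fold in Veh. The UMIs of some of these genes lay mostly in few of the cells. In Doxo, 139 of the 154 Top2a UMIs, 61 of 74 of Rrm2 and 328 of 448 of Tagln lay in the 12 cells with 20 or more genes. In Veh, 316 of 319 Ltf UMIs, 250 of 251 of Chil3 and 6069 of 6163 of S100a9 lay in the 33 cells with 10 or more.

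Cdkn1a encodes p21, an inhibitor of cyclin-dependent kinases that p53 induces after DNA damage. In the class sums it was lower in Doxo in CAR-like cells (801 and 793 UMIs, -0.43, -0.58 to -0.29) and in bone and cartilage fibroblast-like cells (8757 and 6358, -0.41, -0.45 to -0.36), with -0.17 (-0.26 to -0.075) in chondrocyte-like cells. It was higher in Doxo in arteriolar and endosteal fibroblast-like cells (0.18, 0.089 to 0.27), with 0.26 in osteoblast-like and 0.14 in endothelial-like cells, whose intervals reached both sides of 0. Among the 12 Doxo cells with 20 or more of the 40 genes, however, 3 held 100, 88 and 78 Cdkn1a UMIs. They were the 2 chondrocyte-like cells, with 38 and 35 genes, and a CAR-like cell with 36 genes. The remaining 9 held 0 to 8. Among the other 418 Doxo CAR-like cells the highest value was 24 UMIs and the median 0, and among the other 199 Doxo chondrocyte-like cells the highest was 118 and the median 1. The 10 Veh cells held 1 to 30, the highest being the cell rich in immune UMIs. High Cdkn1a and a nearly full set of mitotic genes were thus found in the same cells in 3 Doxo cells, whose totals of 19216 to 20798 UMIs were above the median depth of their library.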

How the data were processed

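Single cells from mouse bone were profiled by droplet 3′ RNA sequencing, with 1 Veh and 1 Doxo library. Reads were aligned by the authors to GRCm38 (mm10) with Cell Ranger; the submitters' processing notes also name Partek. No versions are given in the sources used here. What the authors deposited is a log2 value for each gene in each cell, made by scaling a cell to 1000000 in 2 rounds, as inferred from the numbers themselves. These steps were inverted, giving whole UMIs (within 0.05) for 99.9% of values up to 50; 20 symbols were not whole, none of them a member. All 4976 cells were clustered in Seurat 5.3.0 (R 4.3.3; 35 components, resolution 0.1) without the cell cycle genes; clusters needed 3 markers for a name. Doublets were kept.

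UMIs were summed by class and library. Shares have exact binomial (Clopper-Pearson) intervals, their differences Newcombe intervals, and log2 ratios of CPM (0.5 UMI added) exact conditional binomial intervals, at 95%. Genes with at least 10 UMIs in a class were called at 2-fold. Depth, a total of 1506 to 64938 UMIs per cell, sets how many genes a cell can show. The code (Python 3.11.15, scipy 1.17.1, Scrublet through scanpy 1.11.5) was tested on simulated data. Gene names follow a fixed rule: 15 mitotic genes in the class with most cells counted as cycling, the 3 smallest and 3 largest ratios per class, 4 reference genes and the 10 leading other genes; further genes were chosen after their values were seen, as was the limit of 20 genes. The members, lists and markers were chosen with earlier results of these data known. The alternatives were other limits, filters, clusterings, thinning and minimum UMIs.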

Additional observations from a re-analysis of the deposited data

Results flagged for a closer look

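Shares of cells that were higher in Doxo in some classes, against the lower share in bone and cartilage fibroblast-like cells, are given here as values; each class has 1 library per condition, and the differences between classes were not tested. At 5 or more of the genes, the share of CAR-like cells was 0.71 percentage points higher in Doxo and that of osteoblast-like cells 0.028 points higher, while that of bone and cartilage fibroblast-like cells was -10.1 points. At 20 or more genes, the share was 0.83 points higher in CAR-like, 2.31 points higher in osteoblast-like and 0.15 points higher in chondrocyte-like cells, against -0.37 points in bone and cartilage fibroblast-like cells.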

How the results depend on the processing

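No paired analysis was possible because each condition has 1 library. Leaving out a library was not run, since it would empty a condition. Of the differences in share, 76 of the recomputed values moved by less than the width set for them, 22 moved and 3 turned in direction; of the medians of the 40 genes, 72 held, 9 moved and 5 turned; of the numbers of genes at least 2-fold lower or higher, 18 held and 30 moved. A share or median was called turned only if its sign changed and its main interval held values of 1 sign alone. Other changes of sign were counted as held or moved. The cause of each change below was not tested, beyond fewer cells or genes where the alternative removes them. Depth limits all shares.

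With 3 genes in place of 5, the difference in share (Doxo minus Veh, percentage points) was -9.97 over all cells, 10.5 in CAR-like, -17.3 in bone and cartilage fibroblast-like, -14.5 in arteriolar and endosteal fibroblast-like and -25.8 in endothelial-like cells. Over all cells, bone and cartilage fibroblast-like and chondrocyte-like cells, it was -1.17, -1.79 and -2.15 with 8 genes, -0.68, -1.19 and -0.69 with 10, 0.080, -0.37 and 0.15 with 20, -0.26, -0.69 and 0.58 after thinning, and -0.88, -1.42 and -2.73 without the 6 broad genes. Without cells of 2 or more blood UMIs it was -3.41, -7.53 and -2.08, and 0.48 in arteriolar and endosteal fibroblast-like cells. With classes set by the largest share of markers it was -5.72 in osteoblast-like cells.

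The median log2 ratio of the 40 genes was -0.23 over all cells and 0.090 in CAR-like cells after thinning, -0.28 and -0.10 with the mean of CPM over cells, and 0.28 over all cells without cells of 20 or more blood UMIs. Without cells of 2 or more blood UMIs it was 0.030 in CAR-like and -0.014 in bone and cartilage fibroblast-like cells, and with the strict filter of cells 0.078 in CAR-like cells. In osteoblast-like cells it was 0.13 with classes by share of markers and -0.12 with cell cycle genes kept in the clustering. Without cells of 20 or more genes it was -0.46 over all, -0.23 in CAR-like, -0.48 in osteoblast-like and -0.28 in chondrocyte-like cells.

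After thinning, the genes at least 2-fold lower and higher were 4 and 1 over all cells, 2 and 1 in CAR-like, 7 and 1 in bone and cartilage fibroblast-like, 0 and 0 in arteriolar and endosteal fibroblast-like and 2 and 2 in osteoblast-like cells, with 2 higher in chondrocyte-like cells. With a minimum of 50 UMIs, 1 was higher in CAR-like and 7 lower in bone and cartilage fibroblast-like cells, 0 lower and 0 higher in arteriolar and endosteal fibroblast-like, 0 higher in osteoblast-like, and 0 lower and 3 higher in chondrocyte-like cells. Without cells of 20 or more blood UMIs, 1 was lower and 4 higher over all cells and 8 lower in bone and cartilage fibroblast-like cells. Without cells of 20 or more genes, 10 and 0 were lower and higher over all, 9 and 1 in CAR-like, 5 and 0 in osteoblast-like and 7 and 1 in chondrocyte-like cells, with 10 lower in bone and cartilage fibroblast-like cells. The share of all genes at 2-fold was taken in the main setting alone, so these counts have no such share beside them.

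For other mitotic genes, the median was -0.25 over all and 0.16 in CAR-like cells after thinning and 0.24 in CAR-like cells with a minimum of 50 UMIs. Without cells of 20 or more genes it was -0.27 over all, -0.043 in CAR-like, -0.81 in osteoblast-like and 0.023 in chondrocyte-like cells. For S-phase genes it was -0.19 after thinning and -0.29 without cells of 20 or more genes in CAR-like cells, and -0.18 in bone and cartilage fibroblast-like cells without cells of 20 or more blood UMIs. Cdc20 in osteoblast-like cells turned to -1.65 with cell cycle genes kept, -0.11 with the mean of CPM and -1.46 without cells of 20 or more genes, and Ckap2l in chondrocyte-like cells to -1.69 without the last. The limits of 20 blood UMIs and 20 genes were chosen after seeing the data. Cells of 20 or more genes were picked by the mitosis and G2/M genes themselves, so changes without them follow in part from that choice.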
